A study of Homo sapiens with 60 samples.

Results

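Sibjeondaebo-tang was set against Palmul-tang, both as water extracts on A549 cells, a human non-small cell lung carcinoma line, at matched doses. The comparison used 12 of the 60 libraries of the series. Sibjeondaebo-tang gave 6 libraries (replicates 2 and 3 at 20, 100 and 500 µg/mL) and Palmul-tang gave 6 with the same doses and replicate numbers. These replicate numbers were taken because Palmul-tang has no replicate 1 among the libraries used here. The 3 Sibjeondaebo-tang replicate 1 libraries and 3 vehicle libraries (cells given DMSO, at 0.1% per the labels and 2% per the design text) were kept as levels beside the comparison and entered none of its main tests, only alternative fits. The vehicle libraries carry other sample codes, and no DMSO content is given for the water extracts. A difference of the extracts from the vehicle therefore cannot be told apart from these. All libraries are messenger RNA sequencing 24 h after treatment of the same line, with no genetic change. The labels give 3 fixed doses for both formulas, whereas the design text says that extracts with an IC20 under 500 µg/mL were given at the IC20 and at dilutions of it. Nothing in the labels says whether replicates were separate cultures, so the p-values measure the spread between these libraries, which may be technical.

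Both formulas are tonic decoctions of Korean medicine. Palmul-tang joins a formula given to support qi with one given to nourish blood, and Sibjeondaebo-tang is traditionally the same set of herbs with astragalus root and cinnamon bark added. The labels do not give the recipes, so this is background and not a description of the extracts used. The comparison asks how far the transcriptome of the cells differs between the 2 extracts when dose and replicate number are held constant.

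The fit over all doses covered 16295 genes and called 1 of them at an adjusted p under 0.05 (0.00614% of those tested). At an unadjusted p under 0.05 there were 1097 genes (6.73%), of which 719 (4.41%) had higher and 378 (2.32%) had lower levels with Sibjeondaebo-tang. No gene with a mean of 5 CPM or more (CPM, counts scaled to a common library size by TMM) was called, and DESeq2 called 0 genes, with 491 at an unadjusted p under 0.05. The count depended on the filter for low counts: with no filter, edgeR called 181 of 30694 genes, 148 higher and 33 lower, 108 of them at 5 CPM or more and 0 of them by DESeq2. Depth was similar on both sides, at 23073106 to 26080795 counts per library with Sibjeondaebo-tang and 22161353 to 24794311 with Palmul-tang. The A549 markers were present in all 12 libraries, from 17.6 to 21.8 CPM for EPCAM, an epithelial adhesion protein, up to 3742 to 4650 CPM for ALDH1A1, an aldehyde dehydrogenase abundant in this line. Markers of other cell types were alike in both formulas, and their sums were low beside the A549 markers other than EPCAM. The 5 fibroblast genes summed to 13.7 to 17.1 CPM with Sibjeondaebo-tang and 13.7 to 17.5 with Palmul-tang. In the same order, the 4 endothelial genes summed to 17.8 to 23.1 and 18.1 to 23.3 CPM and the 5 leukocyte genes to 18.7 to 23.4 and 17.7 to 22. Of each of these last 2 sets only 1 gene passed the filter, and VWF, an endothelial gene, was at 0 in all 12 libraries.

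The called gene was DNAAF4-CCPG1 (ENSG00000261771, chr15:55355248-55498360, minus strand, GRCh38), an annotated read-through transcript that joins DNAAF4, a dynein assembly factor, to CCPG1, a receptor for autophagy of the endoplasmic reticulum. It falls under the level set for named genes and is named because it was the only call. With Sibjeondaebo-tang it had 0 and 3 counts at 20 µg/mL, 22 and 83 counts at 100 µg/mL and 0 and 0 counts at 500 µg/mL in replicates 2 and 3, and with Palmul-tang it had 0 counts in all 6 libraries. The 2 Sibjeondaebo-tang libraries at 100 µg/mL held 105 of the 108 counts, and 3 of the 6 Sibjeondaebo-tang libraries were at 0 like those of Palmul-tang. Against a floor of 3 counts over the Palmul-tang group, the pooled level was 34.5-fold higher (adjusted p 0.0239 in the edgeR fit). With counts this uneven between libraries, the ratio is not a firm lower bound. Vehicle replicate 2 had 51 counts with the other vehicle libraries at 0, the 3 Sibjeondaebo-tang replicate 1 libraries had 0, and 16 of the 60 libraries of the series had any. The call was lost, leaving 0 genes, without either of the Sibjeondaebo-tang 100 µg/mL libraries, without Palmul-tang 100 µg/mL replicate 3, with no term for replicate number, and with all 60 libraries in the fit.

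The sequence shows how little separates this transcript from its neighbours within a single read. Of the 4490 windows of 100 bases (the labelled read length) along its 4589-base annotated form, 97 (2.16%) do not occur in the 20 annotated transcripts of DNAAF4 and CCPG1. Of the 1194 such windows along its shorter annotated form of 1293 bases, 99 (8.29%) do not. A single read can be told from the 2 single genes only over such a join, here of its exon 8 to its exon 9. Read pairs that lie on both sides of the join could also be told apart and were not counted. The join is shown (GENCODE 29, GRCh38, minus strand, chr15:55432497-55432521 in lower case and chr15:55389409-55389433 in capitals).
DNAAF4-CCPG1 join: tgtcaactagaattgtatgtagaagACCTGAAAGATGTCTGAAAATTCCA
The 2 single genes had like levels in both formulas: CCPG1 differed by 0.00 ± 0.04 log2 (all log2 differences are given ± SE; unadjusted p 0.974) and DNAAF4 by 0.04 ± 0.10 (unadjusted p 0.699). When the counts of all 3 genes were added together, in an analysis chosen after the data were seen, 0 genes were called. Of 71 read-through genes tested, 11 (15.5%) had an unadjusted p under 0.05, against 6.73% of all genes. The class was looked at with these values in view, since 4 of the 20 smallest p belonged to read-through genes. The 11 include DNAAF4-CCPG1 itself, so the share adds no support.

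The intervals show which differences the libraries could have missed. Over 10872 genes at 5 CPM or more, the 95% interval of the formula difference lay within 1.25-fold in either direction for 10669 (98.1%) and within 1.5-fold for 10844 (99.7%). The median half-width was 0.09 log2, and the median size of the difference itself was 0.03 log2. Genes at 5 to 20 CPM had a median half-width of 0.13 log2 and genes at 100 CPM or more 0.06 log2. At a single dose, with 2 libraries against 2, 83.5% of the intervals lay within 1.25-fold at 20 µg/mL, 83.2% at 100 µg/mL and 81.5% at 500 µg/mL, and at least 98.7% lay within 1.5-fold at each dose. A p above the threshold does not show that the formulas acted alike. The intervals give the sizes that remain possible given the spread between these libraries, which may be technical.

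**Figure D1:**
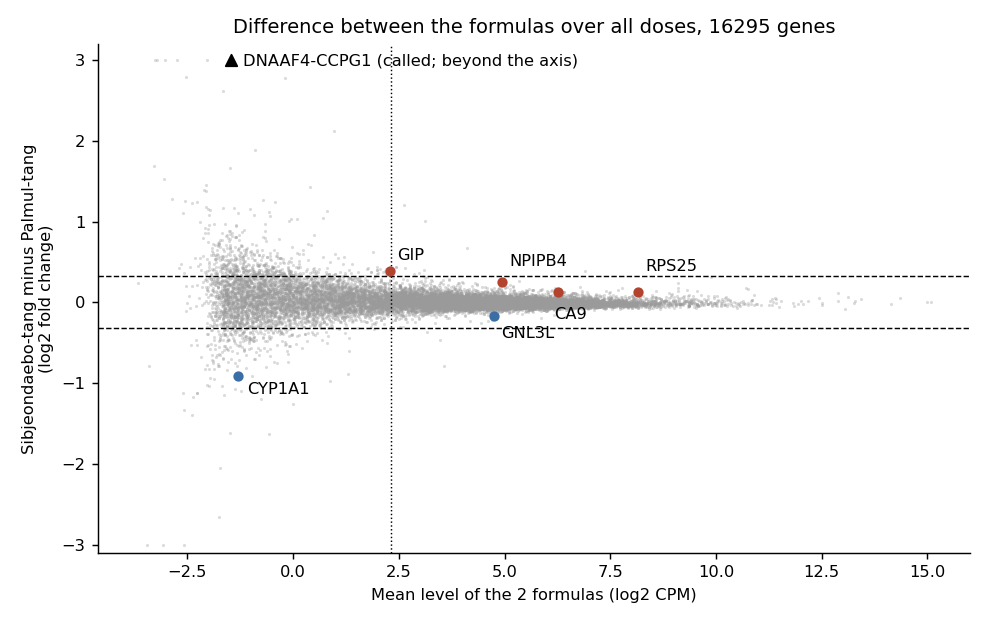
Each point is 1 of the 16295 genes, with the mean level of both formulas (log2 CPM) across and the fitted log2 fold change, Sibjeondaebo-tang minus Palmul-tang, up; values beyond 3 are drawn at 3. Dashed lines mark 1.25-fold, the dotted line 5 CPM, and right of it nearly every gene lies between the dashed lines.

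Dose moved more genes than the choice of formula did. With formula held constant, 500 against 20 µg/mL called 1128 genes (6.92%), 602 higher (3.69%) and 526 lower (3.23%), and 100 against 20 µg/mL called 17 (0.104%). Replicate 3 against replicate 2 called 0 genes, with 695 at an unadjusted p under 0.05. Of the summed variance of genes at 5 CPM or more, dose took 28.3% (2 degrees of freedom), formula 9.41% (1), replicate number 7.84% (1), formula by dose 15.7% (2) and the residual 38.7% (5). The median absolute log2 difference per gene between 2 libraries was 0.0575 to 0.0833 for the other formula at the same dose and replicate number, and 0.0649 to 0.0737 for the other replicate of the same formula and dose. Between 500 and 20 µg/mL of the same formula and replicate number it was 0.0914 to 0.1017. Libraries of different formulas were thus about as far apart as replicates were.

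Among genes at 5 CPM or more, the 6 smallest p-values in each direction are given as values, since none passed the test. GIP (chr17:48958554-48968596), which encodes a gut hormone that raises insulin release, had 6.29 and 5.53 CPM at 20 µg/mL, 4.96 and 5.8 at 100 and 5.25 and 5.62 at 500 with Sibjeondaebo-tang. With Palmul-tang it had 4.65 and 4.37 CPM at 20 µg/mL, 4.70 and 4.24 at 100 and 4.34 and 3.24 at 500. All 6 Sibjeondaebo-tang libraries lay above all 6 of Palmul-tang, as was so for 0.184% of genes tested (log2 difference 0.39 ± 0.09 SE, adjusted p 0.428), and the vehicle mean was 5.98 CPM, on the Sibjeondaebo-tang side. The Sibjeondaebo-tang replicate 1 libraries had 5.98, 4.32 and 5.4 CPM of GIP at 20, 100 and 500 µg/mL, inside the Palmul-tang range at 100. NAA25 (chr12:112026689-112109022), a subunit of an amino-terminal acetyltransferase, averaged 60.5 ± 1.07 CPM with Sibjeondaebo-tang and 65.4 ± 2.46 with Palmul-tang (SD, n = 6 each), with all 6 below all 6, as for 0.0859% of genes (log2 difference -0.11 ± 0.03, adjusted p 0.611). The 3 Sibjeondaebo-tang replicate 1 libraries had 67.0, 64.9 and 61.1 CPM of NAA25 at 20, 100 and 500 µg/mL, inside the Palmul-tang range at 20 and 100.

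NPIPB4 and PKD1P6-NPIPP1, members of a family with near-identical copies on chromosome 16, averaged 33.6 ± 3.39 and 5.71 ± 0.547 CPM with Sibjeondaebo-tang, against 28.1 ± 2.05 and 4.43 ± 0.744 CPM with Palmul-tang. Reads shared between the copies make both values uncertain, and both adjusted p were 0.428. RPS25, a protein of the small ribosomal subunit, averaged 296 ± 16 CPM with Sibjeondaebo-tang and 272 ± 12 with Palmul-tang, and PAQR4, a multi-pass membrane protein, 22 ± 1.76 and 18.8 ± 0.794 CPM in the same order (adjusted p 0.428 and 0.433). The 2 isozymes of adenylosuccinate synthase, which starts AMP synthesis from IMP, stood on opposite sides. ADSS1 averaged 32 ± 1.45 CPM with Sibjeondaebo-tang and 28.4 ± 1.77 with Palmul-tang, and ADSS2 averaged 43.7 ± 1.16 with Sibjeondaebo-tang and 47.2 ± 1.48 with Palmul-tang (log2 differences 0.17 ± 0.04 and -0.11 ± 0.03, adjusted p 0.428 and 0.65). Lower values with Sibjeondaebo-tang also included GNL3L and NOL9, both nucleolar factors of ribosome making (log2 differences -0.17 and -0.14), USP15, a deubiquitinase (-0.14), and RIPK1, a kinase below the TNF receptor (-0.15), with adjusted p of 0.6 to 0.65. In Sibjeondaebo-tang replicate 1, 11 of the 12 genes kept their side of the Palmul-tang mean. NOL9 did not (24.6 CPM beside 24), and ADSS1 was close to that mean (28.8 CPM beside 28.4). The 12 genes were picked on these same Palmul-tang libraries, so a shared side is partly built in and adds no support.

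Of the fixed set of genes that track single pathways, none was called between formulas, and CYP1B1 and CXCL8 rose with dose in both. CYP1B1, a cytochrome induced through the aryl hydrocarbon receptor, had 123 and 124 CPM at 20 µg/mL, 125 and 124 at 100 and 153 and 158 at 500 with Sibjeondaebo-tang. With Palmul-tang it had 117 and 123 CPM at 20 µg/mL, 129 and 140 at 100 and 169 and 168 at 500. Both formulas were highest at 500 µg/mL, above the 113 to 114 CPM of the vehicle, and the formula difference over all doses was -0.07 ± 0.03 log2 (unadjusted p 0.0528, adjusted p 0.74). The 500 against 20 µg/mL change was 0.33 ± 0.05 with Sibjeondaebo-tang and 0.48 ± 0.05 with Palmul-tang on the log2 scale (adjusted p 0.00286 and 0.00023), and the difference between these changes was -0.15 (95% interval -0.29 to -0.02, adjusted p 0.587). CYP1A1, the classic target of the same receptor, was near the detection floor, at 0.0873 to 0.591 CPM with Sibjeondaebo-tang and 0.166 to 1.16 CPM with Palmul-tang. It was lower with Sibjeondaebo-tang in all 6 pairs of the same dose and replicate number, as were 1.71% of genes (log2 difference -0.92 ± 0.30, unadjusted p 0.0076, adjusted p 0.683), and its vehicle libraries had 0.269 to 0.418 CPM. The Sibjeondaebo-tang replicate 1 libraries had 0.31, 0.423 and 1.03 CPM of CYP1A1 at 20, 100 and 500 µg/mL, within the Palmul-tang range.

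CXCL8, a neutrophil chemokine of the NF-kB response, had 2.88 and 3.30 CPM at 20 µg/mL, 4.24 and 4.01 at 100 and 4.98 and 4.52 at 500 with Sibjeondaebo-tang. With Palmul-tang it had 3.40 and 3.25 CPM at 20 µg/mL, 4.49 and 5.20 at 100 and 5.05 and 5.10 at 500, and the vehicle had 1.29 to 1.76. The ranges of the formulas overlapped (log2 difference -0.14 ± 0.08, adjusted p 0.778). The dose change was 0.61 ± 0.14 log2 in each formula, with adjusted p of 0.035 for Sibjeondaebo-tang and 0.0354 for Palmul-tang. ID2, an inhibitor of basic helix-loop-helix factors under BMP control, had 19.7 and 20.0 CPM at 20 µg/mL, 20.0 and 18.6 at 100 and 14.1 and 13.0 at 500 with Sibjeondaebo-tang. With Palmul-tang it had 21.9 and 20.9 CPM at 20 µg/mL, 18.6 and 17.0 at 100 and 12.4 and 11.8 at 500, and all 12 libraries lay below the 25.4 to 28.1 CPM of the vehicle. It fell at 500 against 20 µg/mL with formula held constant (adjusted p 1.31e-05). Its dose change was -0.56 ± 0.07 log2 with Sibjeondaebo-tang and -0.82 ± 0.07 with Palmul-tang, a difference of 0.27 (95% interval 0.04 to 0.49) with an adjusted p of 0.568.

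MKI67, a marker of dividing cells, averaged 410 ± 28.2 CPM with Sibjeondaebo-tang and 417 ± 63.2 with Palmul-tang (SD, n = 6 each). Its dose change was 0.19 ± 0.07 log2 with Sibjeondaebo-tang (adjusted p 0.2) and 0.43 ± 0.07 with Palmul-tang (adjusted p 0.006), and the difference between these changes did not pass (-0.24, 95% interval -0.46 to -0.03, adjusted p 0.587). The stress genes HMOX1 and NQO1, targets of NRF2, differed between formulas by -0.05 ± 0.03 and -0.02 ± 0.03 log2, and the p53 target CDKN1A by 0.02 ± 0.03. ASNS, the asparagine synthetase induced by ATF4, differed by -0.01 ± 0.04 log2, HMGCS1 of cholesterol synthesis by -0.06 ± 0.03, the fibrinogen chain FGB by 0.01 ± 0.03, and the acute-phase protein SAA1 by 0.10 ± 0.05. None of these 7 had an adjusted p under 0.738.

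**Figure D2:**
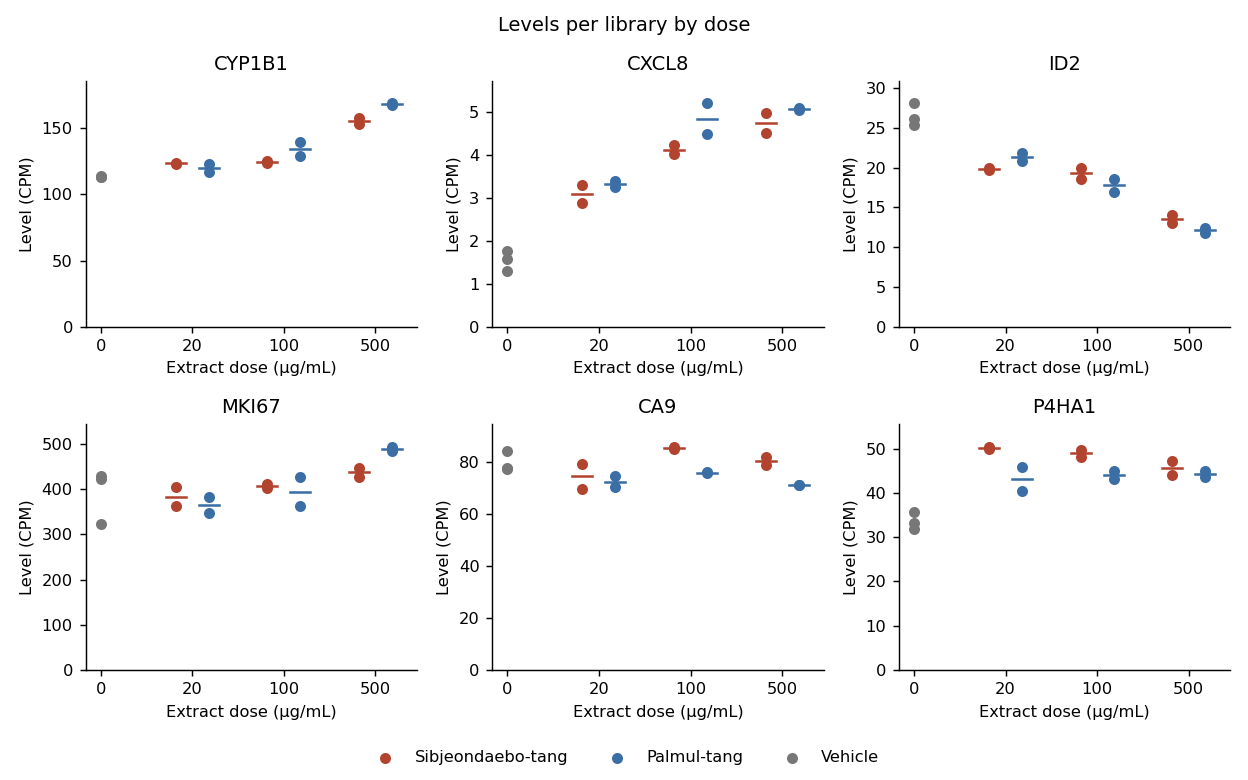
Levels (CPM) of 6 genes in each library against extract dose in µg/mL, with Sibjeondaebo-tang left of Palmul-tang at each dose, bars at the mean of 2 libraries, and the 3 vehicle libraries at 0. CYP1B1 has its highest and ID2 its lowest levels at 500 µg/mL in both formulas, CXCL8 has its highest means there, and CA9 and P4HA1 lie higher with Sibjeondaebo-tang at some doses.

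No member of any list was called between formulas over all doses. Of 26 genes of mitosis (G2/M), 25 rose at 500 against 20 µg/mL with formula held constant, against 3.69% of all genes, with medians of 0.30 log2 in Sibjeondaebo-tang and 0.35 in Palmul-tang. Their formula median was -0.01, beside 0.00 for all genes. Of 26 genes of DNA replication (G1/S), 21 rose with dose (medians 0.29 log2 in Sibjeondaebo-tang and 0.28 in Palmul-tang). Of 24 NF-kB and acute-phase genes, 9 rose and 1 fell with dose (medians 0.19 and 0.22 in the same order), and their formula median was -0.01. Of 12 ID and BMP genes, 5 fell with dose and 0 rose (medians -0.18 and -0.22), against 3.23% of all genes that fell, and of 27 coagulation, complement and secreted liver-type genes 11 fell and 2 rose (medians -0.15 and -0.08). Of 15 mucin, surfactant and alveolar genes, 5 fell (medians -0.20 and -0.08). Over both formulas, the coagulation list summed to 6201 to 6323 CPM at 20 µg/mL and 5757 to 5833 at 500, beside 5545 to 5732 in the vehicle. The mucin list summed to 975 to 1014, 818 to 872 and 766 to 858 CPM in the same order. The ID and BMP list summed to 635 to 690, 580 to 597 and 756 to 778 CPM, falling away from the vehicle. The G2/M list summed to 2065 to 2158, 2558 to 2716 and 2298 to 2383 CPM, with the vehicle between the doses.

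**Figure D3:**
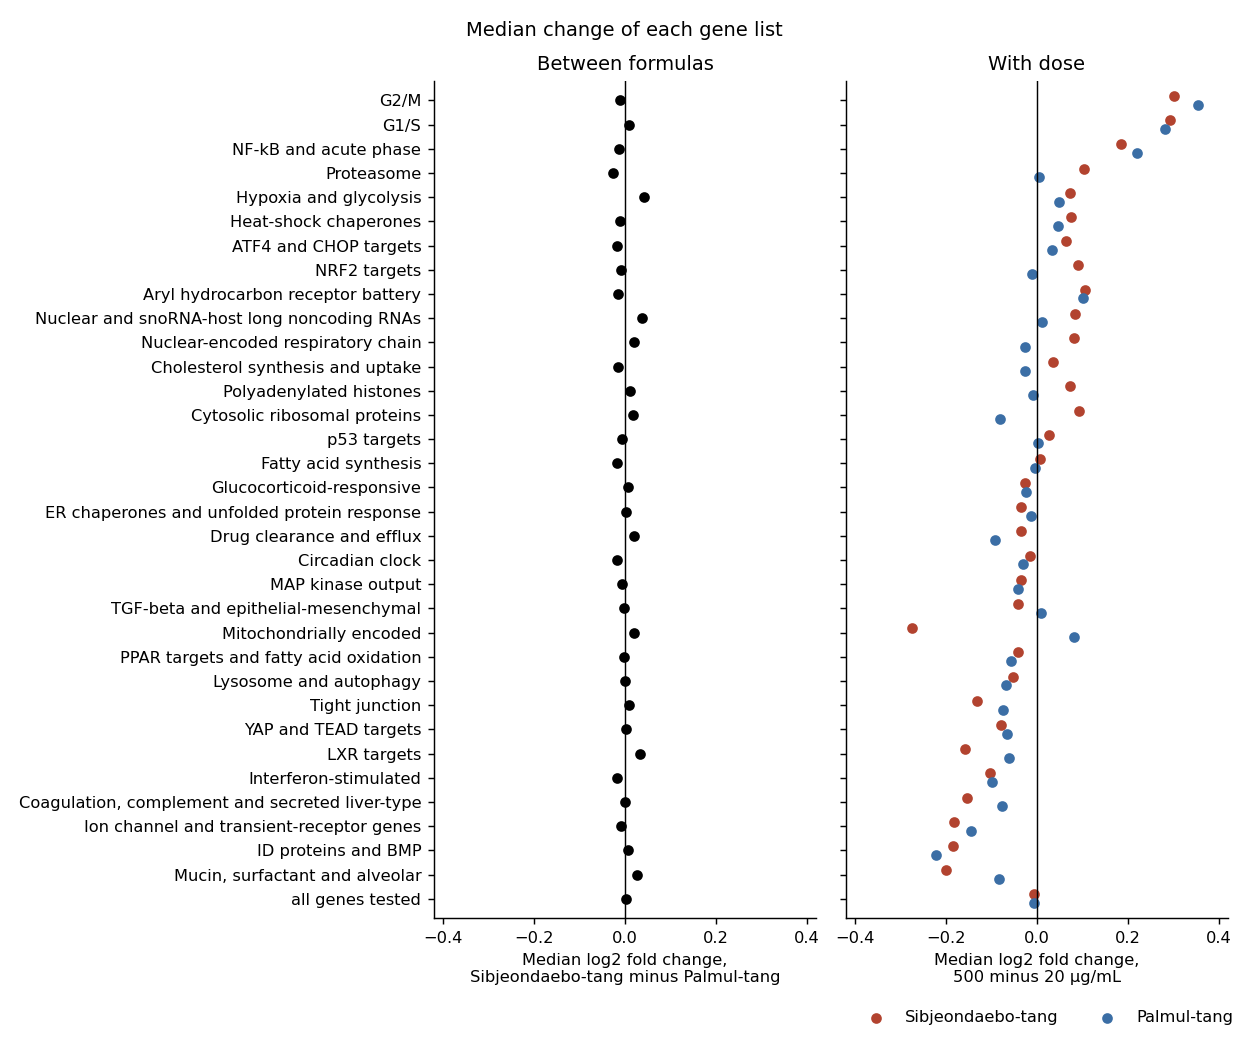
Median log2 fold change of the members of each gene list other than cell type markers with at least 8 genes tested, between formulas (left) and from 20 to 500 µg/mL within each formula (right), with all genes in the bottom row. Medians between formulas run from -0.03 to 0.04, and with dose the G2/M list reaches 0.30 in Sibjeondaebo-tang and 0.35 in Palmul-tang.

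Genes of hypoxia and glycolysis had the highest formula median of the lists drawn in the plot of list medians. This programme is switched on by hypoxia-inducible factors and covers acid handling, blood vessel growth, collagen modification and the conversion of glucose to lactate. Of 26 members tested, 0 were called, 23 had a positive and 3 a negative log2 difference, and the median was 0.04 log2. With an unadjusted p under 0.05 there were 10 members, all of them higher, against 4.41% of all genes, and 8 were higher in all 6 pairs against 2.34% of all genes. The median was 0.04 at 20 µg/mL, 0.06 at 100 and 0.05 at 500, and it was 0.06 within replicate 2 and 0.05 within replicate 3. The most abundant glycolytic enzymes differed little: GAPDH, PKM, ALDOA and LDHA by 0.02 to 0.03 log2 and ENO1 by -0.04, with HK1 and TPI1 the other 2 negative members (-0.04 and -0.03).

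P4HA1, a collagen prolyl hydroxylase, had 50 and 50.5 CPM at 20 µg/mL, 48.2 and 49.8 at 100 and 47.3 and 44.1 at 500 with Sibjeondaebo-tang. With Palmul-tang it had 40.5 and 45.9 CPM at 20 µg/mL, 43.2 and 45.0 at 100 and 44.9 and 43.7 at 500. All 12 libraries lay above the vehicle mean of 33.6 CPM, and the formulas overlapped at 500 µg/mL (log2 difference 0.14 ± 0.04, unadjusted p 0.00194, adjusted p 0.645). CA9, a cell-surface carbonic anhydrase that is a standard hypoxia marker, averaged 79.9 ± 5.84 CPM with Sibjeondaebo-tang and 73.1 ± 2.58 with Palmul-tang (SD, n = 6 each), beside 79.6 in the vehicle. Its log2 difference was 0.13 ± 0.03 (unadjusted p 0.00118, adjusted p 0.566). ALDOC, an aldolase isozyme, averaged 14.7 ± 1.06 CPM with Sibjeondaebo-tang and 12.7 ± 1.05 with Palmul-tang (log2 difference 0.21 ± 0.06, adjusted p 0.65), and VEGFA, the vessel growth factor, 43.3 ± 1.08 and 40.3 ± 1.27 CPM in the same order (0.11 ± 0.03, adjusted p 0.65). ANKRD37, a small hypoxia target, was low at 1.49 ± 0.174 CPM with Sibjeondaebo-tang and 1.16 ± 0.226 with Palmul-tang (0.36 ± 0.15, adjusted p 0.716).

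The Sibjeondaebo-tang replicate 1 libraries did not stand above Palmul-tang in the median of this list, with 13 of 26 members above the Palmul-tang mean. Set against the mean of the same 6 Palmul-tang libraries on the log2(CPM + 0.5) scale, the list median was 0.04 for Sibjeondaebo-tang replicates 2 and 3 and 0.00 for replicate 1. Over the 10 members with a low p, chosen on replicates 2 and 3, the medians were 0.10 for replicates 2 and 3 and 0.00 for replicate 1. P4HA1 had 43.2, 45.5 and 40.9 CPM and ALDOC 11.7, 13.0 and 12.7 CPM in replicate 1 at 20, 100 and 500 µg/mL, none above the highest Palmul-tang libraries (45.9 and 14.4 CPM). CA9, with 74, 84.8 and 82 CPM, lay above the highest Palmul-tang library (76 CPM) at 100 and 500 µg/mL. ADM, a vessel-widening peptide, had 19.9, 20.9 and 18.5 CPM, above the highest Palmul-tang library (19.6 CPM) at 20 and 100 µg/mL. No Palmul-tang replicate 1 stands beside them, so replicate number and formula cannot be told apart there.

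**Figure D4:**
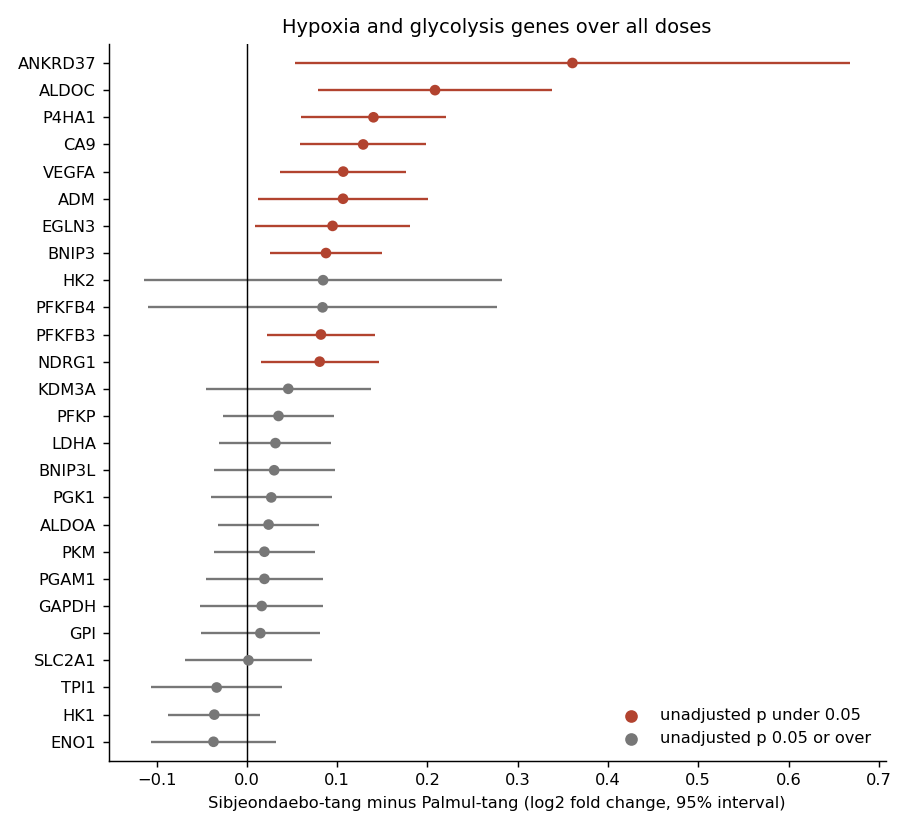
Log2 fold change, Sibjeondaebo-tang minus Palmul-tang over all doses, for the 26 hypoxia and glycolysis genes with 95% intervals, and red for an unadjusted p under 0.05. The 10 red intervals all lie above 0, from 0.08 (NDRG1) to 0.36 (ANKRD37), and none passed after adjustment.

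The 250 bases before the annotated start were read for the list, since hypoxia-inducible factors bind a motif whose core is ACGTG. Of 23 members with a sequence in the RefSeq promoter table (GRCh38.p14), 11 (47.8%) held ACGTG on either strand (written CACGT on the other), and of 11471 tested genes with a sequence 2654 (23.1%) held it. CACGTG, where present, counts once for each strand. CA9 and ALDOC are shown, as members with a low p that differ in the number of matches, with the motif in capitals (CA9 chr9:35673678-35673927, plus strand, and ALDOC chr17:28576896-28577145, minus strand).
CA9: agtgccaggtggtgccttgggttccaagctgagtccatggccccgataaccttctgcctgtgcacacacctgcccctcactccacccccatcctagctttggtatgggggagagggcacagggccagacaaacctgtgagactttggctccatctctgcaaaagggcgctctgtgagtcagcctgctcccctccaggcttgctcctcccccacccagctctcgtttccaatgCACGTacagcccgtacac
ALDOC: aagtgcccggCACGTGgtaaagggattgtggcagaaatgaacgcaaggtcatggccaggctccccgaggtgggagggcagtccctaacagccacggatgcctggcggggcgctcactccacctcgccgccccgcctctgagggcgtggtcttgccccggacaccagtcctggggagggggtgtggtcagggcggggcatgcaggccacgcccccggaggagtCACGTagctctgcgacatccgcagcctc
CA9 has 1 match, close to the start, and ALDOC has 3. A match is a description of the letters and says nothing of binding in these cells.

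A further 3 lists of abundant transcripts had medians between formulas that varied with dose or replicate number. The 13 mitochondrially encoded genes, subunits of the respiratory chain and ATP synthase, summed to 164794 and 133746 CPM at 20 µg/mL, 116454 and 138055 at 100 and 132095 and 115814 at 500 in Sibjeondaebo-tang replicates 2 and 3. In Palmul-tang they summed to 129375 and 131488 CPM at 20 µg/mL, 117955 and 131658 at 100 and 154650 and 123401 at 500. The vehicle libraries spanned 126120 to 164053 CPM, and 1 replicate at each end, Sibjeondaebo-tang 20 µg/mL replicate 2 and Palmul-tang 500 µg/mL replicate 2, was well above its partner. The list median between formulas was 0.19 log2 at 20 µg/mL, 0.05 at 100 and -0.19 at 500, and 0 of 13 were called in the formula by dose test. MT-ATP6, a subunit of ATP synthase, had the smallest p of the 13 for the difference in dose change (-0.64 log2, unadjusted p 0.00235, adjusted p 0.558).

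The 51 cytosolic ribosomal protein genes summed to 40789 ± 1512 CPM with Sibjeondaebo-tang and 40381 ± 1606 with Palmul-tang (SD, n = 6 each). Their dose medians (500 against 20 µg/mL) were 0.09 log2 with Sibjeondaebo-tang and -0.08 with Palmul-tang. Their median between formulas was -0.08 log2 at 20 µg/mL, 0.03 at 100 and 0.08 at 500, and it was -0.04 within replicate 2 and 0.06 within replicate 3, with 0 called. The 33 nuclear-encoded respiratory chain genes had medians of -0.03 within replicate 2 and 0.06 within replicate 3. Medians by exon length per gene (all annotated exons merged) moved the same way. Within replicate 3, genes at 5 CPM or more with the shortest exon lengths (75 to 3992 bases) had a median of 0.02 log2. Those with the longest (6786 bases or more) had -0.03, while within replicate 2 the medians were -0.01 and 0.00 in the same order. The part of exon length in these lists was not tested. The 23 nuclear and snoRNA-host long noncoding RNAs summed to 3310 ± 143 CPM with Sibjeondaebo-tang and 3174 ± 109 with Palmul-tang, and 21 of 23 had a positive difference. NEAT1, the scaffold of paraspeckles, averaged 596 ± 96.3 CPM with Sibjeondaebo-tang and 505 ± 28.1 with Palmul-tang (log2 difference 0.24 ± 0.07, adjusted p 0.65). The median of this list was -0.02 within replicate 2 and 0.14 within replicate 3.

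**Figure D5:**
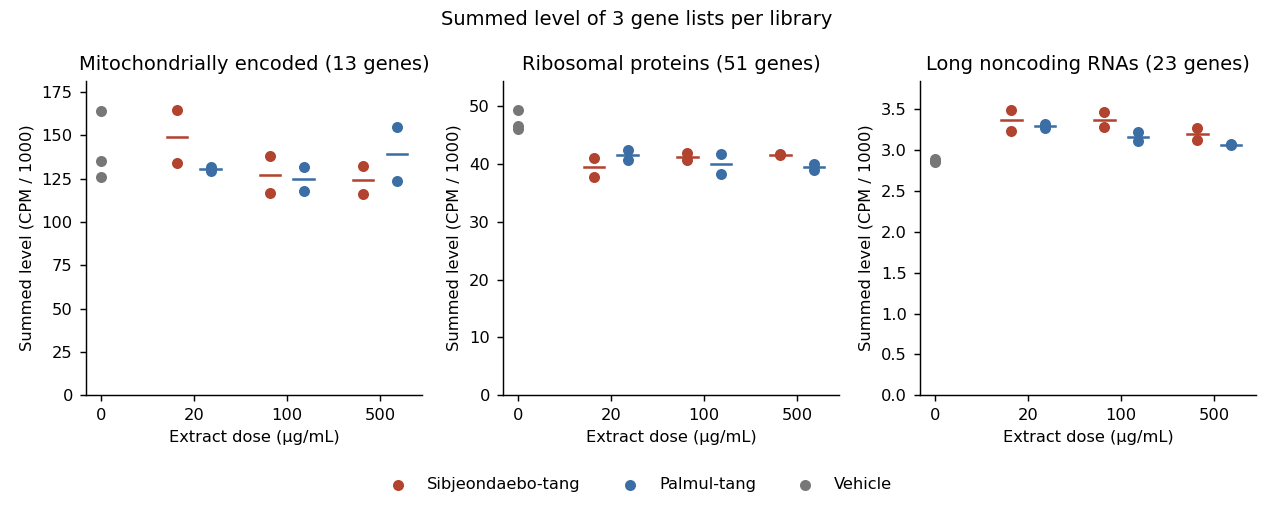
Summed level (CPM divided by 1000) of 3 gene lists in each library against extract dose in µg/mL, with Sibjeondaebo-tang left of Palmul-tang, bars at the mean of 2 libraries and the 3 vehicle libraries at 0. Mitochondrially encoded genes overlap between formulas at 100 and 500 µg/mL, ribosomal proteins at 20 and 100 and long noncoding RNAs at 20, and the 51 ribosomal protein genes are highest in the vehicle.

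At single doses, 0 genes were called at 20 µg/mL (0%), 1 at 100 µg/mL (0.00614%) and 0 at 500 µg/mL (0%), with 798 (4.9%), 960 (5.89%) and 1281 (7.86%) at an unadjusted p under 0.05. The call at 100 µg/mL was again DNAAF4-CCPG1 (adjusted p 0.0357). DESeq2 called 0 at each dose, with 188, 238 and 389 at an unadjusted p under 0.05. At 500 µg/mL the smallest p belonged to ANGPTL4, a secreted inhibitor of lipoprotein lipase, with 55.1 and 64.7 CPM with Sibjeondaebo-tang and 47.5 and 46.9 with Palmul-tang (log2 difference 0.34 ± 0.06, adjusted p 0.529). S100A6, a calcium-binding protein, had 491 and 573 CPM with Sibjeondaebo-tang and 408 and 423 with Palmul-tang at that dose (0.35 ± 0.07, adjusted p 0.529), and USP15 39.1 and 37.3 CPM against 47.2 and 46.5 (-0.29 ± 0.05, adjusted p 0.529). At 20 µg/mL STC1, a secreted glycoprotein hormone, had 43.1 and 46.3 CPM with Sibjeondaebo-tang and 33.4 and 39.0 with Palmul-tang (0.31 ± 0.06, adjusted p 0.614). In all 4 the libraries of the formulas did not overlap at that dose, with 2 against 2. These genes were picked for a small p, so this adds no support, and the share of all genes without overlap was not counted. The Sibjeondaebo-tang replicate 1 library at the same dose had 52.6 CPM of ANGPTL4, 457 of S100A6 and 40.5 of USP15, on the Sibjeondaebo-tang side, but 32.2 CPM of STC1, below both Palmul-tang libraries. The same Palmul-tang libraries served to pick these genes, so a shared side adds no support either.

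A pair of read-through genes were among the other low p-values at single doses. At 100 µg/mL BCL2L2-PABPN1 had 18.2 and 16.2 CPM with Sibjeondaebo-tang and 11.2 and 9.02 with Palmul-tang (log2 difference 0.77 ± 0.12, adjusted p 0.116), but its vehicle libraries alone spanned 8.31 to 19.1 CPM. Its 2 parts did not follow it, since BCL2L2, an anti-apoptotic protein, differed by -0.01 ± 0.08 log2 and PABPN1, a poly(A)-binding protein, by -0.05 ± 0.07. At 20 µg/mL ATP6V1G2-DDX39B had 39.8 and 47.6 CPM with Sibjeondaebo-tang and 67.1 and 70.3 with Palmul-tang (-0.64 ± 0.11, adjusted p 0.614), while DDX39B, an RNA helicase of messenger RNA export, had 195 and 189 CPM against 171 and 165 (0.19 ± 0.06, adjusted p 0.931). The 2 share exons, so reads may be split between them.

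Whether the difference between formulas changes with dose was tested per gene. The formula by dose test called 0 genes (0%), with 951 at an unadjusted p under 0.05 and a smallest adjusted p of 0.82, and DESeq2 called 0, with 194 at an unadjusted p under 0.05. The change from 20 to 500 µg/mL differed between formulas at an adjusted p under 0.05 for 0 genes (0%), with 1333 at an unadjusted p under 0.05. The intervals were wider here, with 52.7% within 1.25-fold and 93.2% within 1.5-fold. PLAU, the urokinase plasminogen activator, had 57.2 and 56.7 CPM at 20 µg/mL, 59.1 and 57.7 at 100 and 60.3 and 57.9 at 500 with Sibjeondaebo-tang. With Palmul-tang it had 63.2 and 65.5 CPM at 20 µg/mL, 62.0 and 60.9 at 100 and 54.2 and 52.2 at 500, and the difference in dose change was 0.33 ± 0.07 log2 (adjusted p 0.558). The Sibjeondaebo-tang replicate 1 libraries, outside this fit, had 65.6, 62.9 and 51.9 CPM of PLAU at 20, 100 and 500 µg/mL, lowest at 500 µg/mL as with Palmul-tang. Across the 10872 genes at 5 CPM or more, the 500 against 20 µg/mL changes of Sibjeondaebo-tang and Palmul-tang, which share no library, had a Pearson r of 0.417, a description over genes that are not independent.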

How the data were processed

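Messenger RNA of A549 cells was sequenced 24 h after treatment (directional library kit, paired 100-base reads, per the labels' protocols). Per the submitters' processing notes, the tools were FastQC 0.11.9, Trim Galore 0.6.5, STAR 2.7.3a and RSEM 1.3.3, with GRCh38; which annotation release and strand setting were used is not given in the sources used here. Expected counts per gene are what the authors deposited, as 60675 identifiers in 270 columns, of which 210 columns were not used here. Of values above 0, 76% were whole within 1e-09, and every value was rounded for the fits.

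The 12 libraries were filtered with filterByExpr to 16295 genes, scaled by TMM, and tested with the quasi-likelihood test of edgeR 4.0.16 (R 4.3.3), with terms for dose, replicate number and formula (7 residual degrees of freedom), or with 1 mean per formula and dose and a term for replicate number (5). Adjusted p are Benjamini-Hochberg over all genes tested, with a threshold of 0.05. The common biological coefficient of variation was 4.29%. SEs were taken as the size of the log2 change over the root of F. Levels are CPM scaled by TMM over 18 libraries, except sums of cell type markers, which are CPM of all counts, unscaled. Pairs were compared as log2(CPM + 0.5). The scripts were tested on simulated data with formula changes only and no dose or replicate differences. Over all doses, 46 of 50 genes changed 1.25-fold were called, as were 21 of 15884 unchanged genes. At 1.5-, 2- and 4-fold 49, 50 and 50 of 50 were called. At 500 µg/mL, 31 of 50 genes changed 1.25-fold were called. So many true changes loosen the adjusted threshold, so these rates need not hold for the data. The 95% interval held the true change for 93% of changed genes.

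Named genes are a fixed set of 12 and, among those at 5 CPM or more in either formula, the 6 with the smallest p in each direction over all doses and the 5 with the smallest p at each dose and for the formula by dose test; part of them are printed. DNAAF4-CCPG1, the motif, MT-ATP6, NEAT1 and members of lists outside this rule were picked with their values in view. The members and the 40 gene lists (3 entries unmatched) were chosen with earlier results of these data known, so list counts support nothing beyond themselves. Symbols and positions came from GENCODE 29, promoter sequences from RefSeq (GRCh38.p14). Alternatives were RLE size factors, DESeq2 1.42.0, no filter, no term for replicate number, all 60 libraries, Sibjeondaebo-tang replicate 1 added, each replicate number alone, leaving out each library and, added later, joined read-through counts.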

Additional observations from a re-analysis of the deposited data

Results flagged for a closer look

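Of 105 groups of 6 libraries looked at, 8 held 1 library far from the rest. Chance gives about 1 in 20 for 6 libraries drawn alike, but each group spans 3 doses, so that rate need not hold here. Each value is the gap to the nearest library as a share of the whole range of the 6. DNAAF4-CCPG1 was high in Sibjeondaebo-tang 100 µg/mL replicate 3 (0.731; 3.3 CPM, the others 0 to 0.887). GNL3L was high in Sibjeondaebo-tang 500 µg/mL replicate 3 (0.749; 29.6 CPM, the others 24 to 25.4), inside the Palmul-tang range. NDRG1, a hypoxia target, was high in Sibjeondaebo-tang 20 µg/mL replicate 3 (0.694; 132 CPM, the others 113 to 119). BNIP3, a mitophagy receptor, was low in Sibjeondaebo-tang 20 µg/mL replicate 2 (0.626; 64.5 CPM, the others 71.1 to 75.1). Among Palmul-tang libraries, 500 µg/mL replicate 3 was low for GIP (0.685; 3.24 CPM, the others 4.24 to 4.7) and high for the ferritin pseudogene FTH1P2 (0.649; 5.14 CPM, the others 3.3 to 3.94). RIPK1 was low in Palmul-tang 500 µg/mL replicate 2 (0.699; 23.8 CPM, the others 25.5 to 26.2). CPT1B, the muscle form of carnitine palmitoyltransferase, was high in Palmul-tang 20 µg/mL replicate 3 (0.729; 11.2 CPM, the others 8.35 to 9.13).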

How the results depend on the processing

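The count over all doses was 1 with RLE size factors and with Sibjeondaebo-tang replicate 1 added. It was 181 with no filter on low counts, 4 within replicate 2 and 41 within replicate 3 (33 higher), 0 with DESeq2 or all 60 libraries, 0 with DNAAF4-CCPG1 joined to its 2 parts, and 0 to 2 when 1 library was left out. The 181 included CA9, ANGPTL4, STC1 and RPS25 (adjusted p 0.0488, 0.0211, 0.0244 and 0.0193). With no filter the counts were 121 at 20 µg/mL, 110 at 100 µg/mL, 164 at 500 µg/mL and 236 in the formula by dose test, against 0, 1, 0 and 0; the cause was not tested. At 100 µg/mL, DESeq2, all 60 libraries and joined counts gave 0. Leaving out 1 library gave 0 to 37 at 20 µg/mL (37 without Sibjeondaebo-tang replicate 3), 0 to 40 at 100 µg/mL (40 without Sibjeondaebo-tang replicate 2), 0 to 6 at 500 µg/mL and 0 to 22 in the formula by dose test (22 without Sibjeondaebo-tang 20 µg/mL replicate 3). In these fits the lone library of a group is assumed to vary like the others. Members of gene lists called over all doses numbered 0, against 9 with no filter and 4 within replicate 3. No value called in the main or the alternative fit changed sign. Of 52 single-gene values, 5 uncalled ones changed sign in some alternative (NQO1, ASNS, CDKN1A, MKI67 and FGB, at -0.02 to 0.02 log2 there). Of 33 list medians, 14 had the other sign within replicate 2 and 6 within replicate 3, the long noncoding RNA and ribosomal lists among the 14. The hypoxia and glycolysis median ran from 0.02 to 0.06 log2 over all alternatives, with 5 to 10 members higher at an unadjusted p under 0.05.

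Replicate numbers were in the fit as a block. The replicate 3 minus replicate 2 differences of the groups gave 15 correlations, from -0.19 to 0.269 with a median of -0.0261 and 2 over 0.1. Between the 2 formulas at the same dose they were 0.269 at 500 µg/mL, -0.0488 at 100 and -0.0337 at 20. What libraries with the same number have in common was not tested. Without the replicate block the counts were 0 over all doses and 0 at 100 µg/mL. With 2 libraries per formula and dose, differences under 1.25-fold were often within the intervals at a single dose.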

Other observations

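Some low genes of the lists had differences between formulas that were large beside their list's median, none of them called. F3, the tissue factor that starts coagulation and a member of the coagulation list, averaged 1.88 ± 0.218 CPM with Sibjeondaebo-tang and 2.37 ± 0.111 with Palmul-tang (SD, n = 6 each; log2 difference -0.33 ± 0.11 SE, adjusted p 0.683 by edgeR's quasi-likelihood test). EPHA4, a receptor for ephrins, averaged 1.14 ± 0.297 CPM with Sibjeondaebo-tang and 0.785 ± 0.212 with Palmul-tang (0.55 ± 0.17, adjusted p 0.669). UGT2B7, a glucuronosyltransferase, averaged 0.857 ± 0.0792 CPM with Sibjeondaebo-tang and 0.632 ± 0.0982 with Palmul-tang (0.44 ± 0.18, adjusted p 0.716). All 3 were picked with their values in view. The 8 A549 markers all had negative differences, with a median of -0.04 log2 and none at an unadjusted p under 0.05.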
